A study of Mus musculus with 12 samples.

Results

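The genes described here carry glucose into the cell, break it down to pyruvate, exchange pyruvate with lactate, and pass pyruvate into the mitochondrion and through the pyruvate dehydrogenase complex. The set was chosen by gene name and holds 33 genes of the 32742 in the deposited table. All 33 passed the filter on low counts, so none was lost to it. RNA was sequenced from primary astrocyte cultures of the mouse midbrain in 4 groups of 3 samples. Wild-type cultures were given either PBS, a buffered saline, or MPP+ (500 µM, 24 h). Cultures labelled as Arrb2 knockout, which lack the gene for beta-arrestin 2 by their label, were given the same. MPP+ is what cells make from the parkinsonian toxin MPTP, and it blocks respiratory complex I. Pups were taken at postnatal day 0 to 3, and the labels give Day 14 for every sample. Mixed glia were shaken to detach other cells, and the labels state a purity above 95% by GFAP staining. No strain or pup sex is given, and nothing states that the 3 samples of a group came from separate animals or cultures. The p-values therefore measure the spread between these samples, which may be technical.

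Glycolysis splits glucose into pyruvate and yields ATP without oxygen. Lactate dehydrogenase interconverts pyruvate and lactate and regenerates the NAD+ that glycolysis needs, and monocarboxylate carriers move lactate across the plasma membrane. Pyruvate that enters the mitochondrion is turned into acetyl-CoA by the pyruvate dehydrogenase complex, which its kinases switch off by phosphorylation and its phosphatases switch on. Astrocytes are known for a high glycolytic rate and for releasing lactate, and cells with blocked respiration rely on glycolysis for ATP. Messenger RNA levels do not measure flux through these steps.

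Library totals ran from 64249029 to 69865569 counts, and the scaling factors between libraries from 0.962 to 1.05. On the third principal component, replicate 1 of wild-type MPP+ lay far from replicates 2 and 3. Arrb2 was at 17.2 to 31.0 CPM (counts scaled to library size) in the wild-type libraries and 12.1 to 16.1 CPM in those labelled knockout, so its RNA was lower but still counted. The summed level of Y-linked genes was 0 to 0.230 CPM in wild type and 39.4 to 131 CPM in the knockout, so sex and genotype cannot be told apart. The summed CPM of 10 astrocyte markers fell from between 6206 and 7077 to between 1899 and 2506 with MPP+ in wild type, and from between 4399 and 5626 to between 1654 and 1964 in the knockout. Of these markers 9 of 10 were lower with MPP+ in each genotype. The summed CPM of 9 markers of the oligodendrocyte lineage was 293 to 321 in PBS and 75.8 to 87.7 with MPP+ in wild type, and 408 to 421 and 117 to 147 in the knockout. Only 3 of the 8 tested among them were called lower with MPP+ in each genotype, and 0 higher. The share of mitochondrially encoded counts was 8.85 to 10.9% in knockout MPP+ and 5.43 to 8.64% in the other groups. The part of either in the results was not tested. In bulk RNA, fewer cells of a type and less RNA per cell cannot be told apart.

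With MPP+, most of the glycolytic chain fell in both genotypes, while single isozymes within it rose. In wild type 17 of the 33 genes fell, 4 rose and 12 did not pass the test, at an adjusted p under 0.05 in edgeR's quasi-likelihood test. Over all 21129 genes tested, 55.2% were called in that comparison, 28.4% as lower and 26.8% as higher, so a call alone is common here. In the knockout 18 fell, 4 rose and 11 did not pass, where 47.7% of all genes were called, 24.7% lower and 23.1% higher. The median log2 fold change of the 33 was -0.27 in wild type and -0.33 in the knockout, beside -0.04 over all genes in each. The 17 genes that fell in wild type all fell in the knockout too, and 3 (Hk2, Eno2 and Dlat) rose in both. None was called in opposite directions. The MPP+ and PBS samples did not overlap for 17 genes on the lower and 5 on the higher side in wild type, where this held for 32.8% and 30.2% of all genes, and for 21 and 5 in the knockout, beside 31% and 27.9%. The 2 comparisons share no sample, and the log2 fold changes of the 33 genes correlated across genes at a Pearson r of 0.964, given as a description since genes are not independent replicates.

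**Figure D1:**
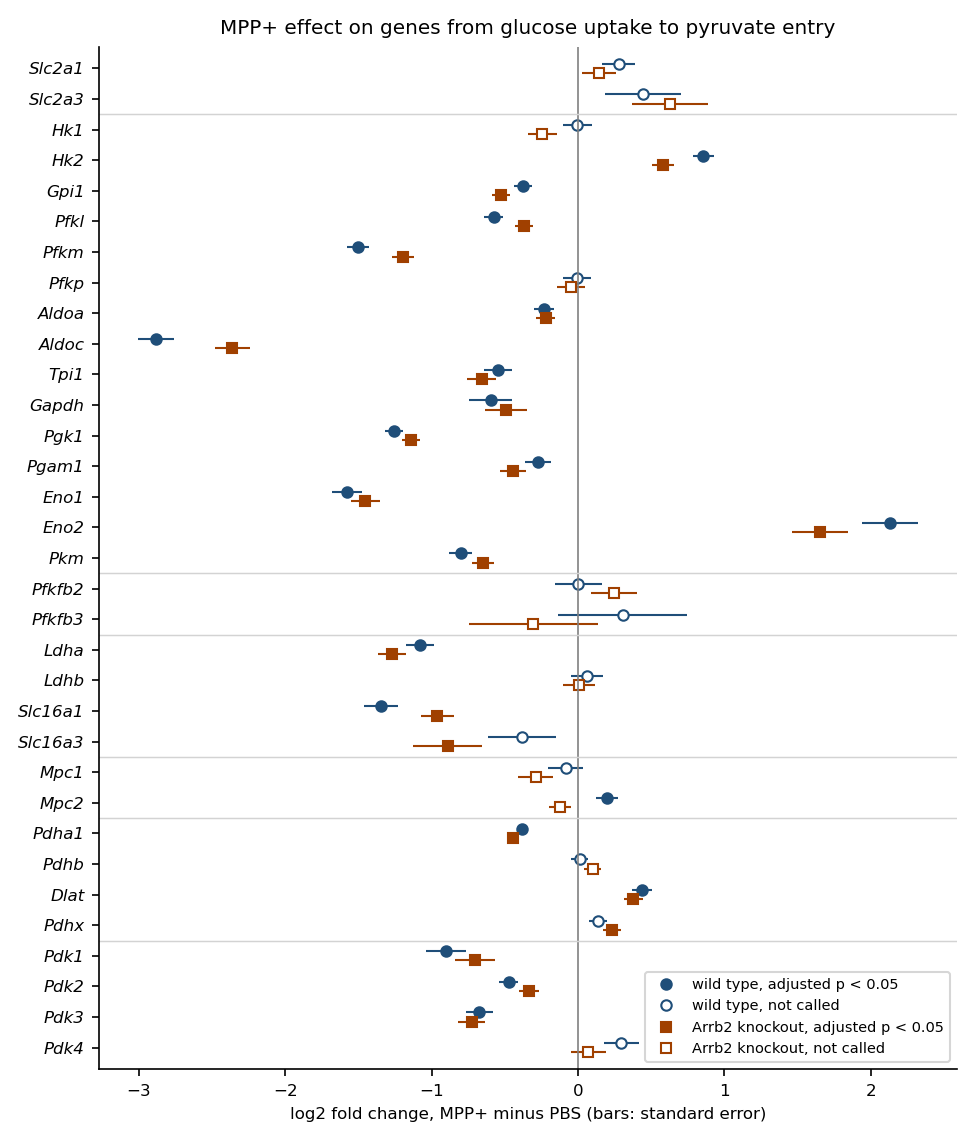
Log2 fold change with MPP+ (x axis, MPP+ minus PBS) of each of the 33 genes (y axis, ordered by role, grey lines between roles) in wild type (circles) and knockout (squares), from 3 samples a group. Bars are standard errors and filled symbols passed an adjusted p of 0.05. Aldoc lies farthest left and Eno2 farthest right in both genotypes.

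Glucose transporters did not pass the test. Slc2a1 encodes GLUT1, the main glucose transporter of astrocytes. Levels are given as FPKM, fragments per kilobase of transcript scaled to library size, divided by the library's scaling factor (scaled FPKM), which allows comparison between genes. Slc2a1 was at 27.05, 29.7 and 30.2 in wild-type PBS and 28.9, 41.6 and 35.1 with MPP+, and the log2 difference was 0.28 ± 0.11, adjusted p = 0.0603. In the knockout it was 0.14 ± 0.11, adjusted p = 0.337. The wild-type groups overlapped, and scaling by library totals instead gave 0.31 in wild type with an adjusted p of 0.031. Slc2a3, which encodes the high-affinity transporter GLUT3, was at 8.43, 9.14 and 8.55 in wild-type PBS and 9.21, 14.4 and 11.9 with MPP+. In the knockout it was at 2.88, 6.94 and 6.17 in PBS and 8.62, 8.62 and 7.63 with MPP+, with PBS replicate 1 far below the others. Its log2 differences were 0.44 ± 0.26, adjusted p = 0.171 in wild type and 0.63 ± 0.26, adjusted p = 0.0671 in the knockout.

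Of the 15 enzymes from hexokinase to pyruvate kinase, 11 fell and 2 rose with MPP+ in wild type, and the same counts held in the knockout. The summed scaled FPKM of the 15 was 1234 ± 13.7 (SD, n = 3) in wild-type PBS and 738 ± 38.7 with MPP+, and 1317 ± 39.6 and 788 ± 29.4 in the knockout. The enzymes that exist as isozymes did not move together, so they are given by reaction.

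Hexokinase traps glucose as glucose 6-phosphate. Hk1, the form most brain cells use, was at 17.6 to 21.5 scaled FPKM in wild-type PBS and 16.3 to 21.3 with MPP+, with log2 differences of -0.01 ± 0.10, adjusted p = 0.957 in wild type and -0.25 ± 0.10, adjusted p = 0.0613 in the knockout. Hk2, the inducible form that also binds mitochondria, was at 10.1, 9.39 and 9.36 in wild-type PBS and 16.005, 18.6 and 17.6 with MPP+. Knockout samples were at 11.3, 9.84 and 10.2 in PBS and 15.4, 15.1 and 16.6 with MPP+. Every MPP+ sample lay above every PBS sample. The rise was 1.81-fold in wild type (log2 0.86 ± 0.07, adjusted p = 1.92e-06) and 1.49-fold in the knockout (log2 0.58 ± 0.07, adjusted p = 5.81e-05). Hk2 made up 33.5 ± 2.75% of the summed hexokinase FPKM in wild-type PBS and 47.8 ± 1.56% with MPP+, and 34.2 ± 2.62% and 47.9 ± 1.13% in the knockout. Glucose phosphate isomerase, Gpi1, the next step, fell by a smaller amount (-0.38 ± 0.06, adjusted p = 0.000339 in wild type and -0.53 ± 0.06, adjusted p = 3.41e-05 in the knockout).

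Phosphofructokinase commits the sugar to glycolysis and is built from muscle, liver and platelet type subunits. Pfkm, the muscle type, was at 62.7, 60.8 and 59.2 scaled FPKM in wild-type PBS and 21.4, 23.2 and 20.002 with MPP+. The knockout values were 52.8, 60.8 and 54.8 in PBS and 25.7, 22.9 and 25.4 with MPP+. The groups were far apart, with log2 fold changes of -1.50 ± 0.08, adjusted p = 3.32e-08 in wild type and -1.20 ± 0.08, adjusted p = 2.20e-07 in the knockout. Pfkl, the liver type, fell less (-0.58 ± 0.06 and -0.37 ± 0.06, adjusted p = 9.85e-06 and 0.000417). Pfkp, the platelet type, was at 30.9 to 35.4 in wild-type PBS and 27.8 to 36.96 with MPP+, and its log2 differences were -0.01 ± 0.09, adjusted p = 0.954 and, in the knockout, -0.05 ± 0.09, adjusted p = 0.717. By scaled FPKM, Pfkm was the most abundant subunit in PBS, at 59.1 ± 1.62% of the wild-type sum. With MPP+ it was at 35.8 ± 3.59%, and Pfkp went from 31.4 ± 1.81% to 53.4 ± 4.62%. In the knockout Pfkp went from 33.8 ± 2.20% to 50.5 ± 1.91%. These shares are of FPKM, which is scaled to transcript length. In raw counts Pfkp was above Pfkm in every library of both treatments, at 27907 to 35967 against 4806 to 15591. Pfkm, Pfkp and Tpi1 overlap genes on the other strand (Senp1, Pitrm1 and Spsb2), and the sources used here do not say whether the counting used strand.

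Pfkfb2 and Pfkfb3 make and degrade fructose 2,6-bisphosphate, the strongest activator of phosphofructokinase. Pfkfb2 was at 3.56 to 4.31 scaled FPKM in wild-type PBS and 2.90 to 4.45 with MPP+, with log2 differences of 0.00 ± 0.16, adjusted p = 0.994 and, in the knockout, 0.24 ± 0.16, adjusted p = 0.234. Pfkfb3, the form with the highest kinase activity, was at 20.004, 19.2 and 7.06 in wild-type PBS and 18.4, 28.7 and 10.2 with MPP+. In the knockout it was at 17.6, 20.6 and 9.37 and 9.60, 14.1 and 15.01. Replicate 3 was the lowest of its group in 3 of the 4 groups and the highest in knockout MPP+. The standard error of 0.44 on its log2 difference was the largest among the 33 genes, and no difference was detectable (0.31 ± 0.44, adjusted p = 0.584 in wild type).

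Aldolase splits fructose 1,6-bisphosphate, and the largest fall of the set was in its brain form. Aldoc was at 64.5, 75.6 and 70.98 scaled FPKM in wild-type PBS and 9.05, 10.2 and 9.42 with MPP+. Knockout samples were at 82.1, 98.3 and 83.8 in PBS and 20.2, 14.6 and 16.9 with MPP+. This was 7.38-fold lower in wild type (log2 -2.88 ± 0.12, adjusted p = 1.01e-08) and 5.14-fold lower in the knockout (log2 -2.36 ± 0.12, adjusted p = 4.56e-08). Aldoc is strongly expressed by astrocytes in the brain, and its fall stands beside that of astrocyte markers such as Aqp4, a water channel (-2.88 ± 0.09 in wild type), and Slc1a3, a glutamate transporter (-0.59 ± 0.16); the part of the markers' fall in this result was not tested. Aldoa, the widespread form, fell only slightly, from 179 ± 4.96 to 153 ± 14.6 in wild type (-0.23 ± 0.07, adjusted p = 0.012) and by a similar log2 value in the knockout (-0.22 ± 0.07, adjusted p = 0.0178). The call was lost without wild-type MPP+ replicate 3 (highest adjusted p 0.0542), and in the knockout without PBS replicate 1 or 2 or MPP+ replicate 2 or 3 (highest 0.066) or with library totals or the limma fits. Aldoc was 28.2 ± 1.81% of aldolase FPKM in wild-type PBS and 5.89 ± 0.284% with MPP+, and 32.6 ± 2.001% and 9.86 ± 1.09% in the knockout.

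A second Ensembl gene named Aldoa behaved differently and was counted apart from the 33. It lies directly upstream of the main gene on the minus strand of chromosome 7, at chr7:126800790-126809108, while the main gene spans chr7:126795234-126800751 (GRCm38). It was at 0.879, 1.18 and 0.614 scaled FPKM in wild-type PBS and 8.17, 13.3 and 10.3 with MPP+. The knockout values were 0.629, 0.871 and 0.986 in PBS and 8.54, 8.45 and 5.25 with MPP+. Every MPP+ sample exceeded every PBS sample, and the log2 fold changes were 3.54 ± 0.31, adjusted p = 1.95e-06 and, in the knockout, 3.13 ± 0.31, adjusted p = 6.67e-06. Its level with MPP+ stayed far below that of the main gene, at 142 to 170 in wild type, and the sources used here do not say how reads of this locus were assigned.

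The middle and lower steps fell. Triosephosphate isomerase, Tpi1, which interconverts the triose phosphates, fell by 0.55 ± 0.10 on the log2 scale in wild type and by 0.66 ± 0.10 in the knockout. Gapdh, which makes NADH, was listed at only 6.87 to 8.77 scaled FPKM in wild-type PBS and 4.33 to 5.62 with MPP+. It fell in both genotypes (-0.60 ± 0.15, adjusted p = 0.00449 and -0.49 ± 0.15, adjusted p = 0.0155), although in the knockout the call was lost without PBS replicate 1 or 3 or MPP+ replicate 2. Gapdh has many near-identical copies in the genome and overlaps Iffo1 on the other strand, so its level is uncertain. Pgk1, an X-linked gene whose enzyme makes the pathway's earliest ATP, was at 269, 298 and 297 in wild-type PBS and 131, 119 and 112 with MPP+. In the knockout it was at 296, 295 and 284 and 134, 130.3 and 135. The MPP+ values of each genotype lay below all PBS values (-1.26 ± 0.06, adjusted p = 3.28e-08 and -1.14 ± 0.06, adjusted p = 8.20e-08). Phosphoglycerate mutase, Pgam1, fell by 0.27 ± 0.09 in wild type, a call lost without MPP+ replicate 1 or 3, and by 0.45 ± 0.09 in the knockout. Pkm, pyruvate kinase, fell from 155 ± 12.6 to 88.9 ± 4.19 in wild type (-0.80 ± 0.08, adjusted p = 4.88e-06) and from 167 ± 15.2 to 107 ± 4.16 in the knockout (-0.65 ± 0.08, adjusted p = 3.58e-05). Retrocopies of Pgk1 and Pgam1 had 217 to 759 and 1052 to 1659 counts of their own, so reads of these genes may be split.

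Enolase showed opposite changes of its main forms. Eno1, the widespread form, was at 146, 129 and 144 scaled FPKM in wild-type PBS and 53.8, 44.2 and 42.3 with MPP+. Knockout samples were at 174, 149.8 and 163 in PBS and 63.8, 53.6 and 61.4 with MPP+. It fell in both (-1.58 ± 0.10, adjusted p = 1.81e-07 and -1.45 ± 0.10, adjusted p = 4.91e-07). Eno2, often called neuron-specific enolase, was at 3.79, 4.43 and 3.97 in wild-type PBS and 12.4, 23.2 and 17.9 with MPP+. The knockout values were 3.47, 3.70 and 3.59 in PBS and 12.7, 11.98 and 9.50 with MPP+. The MPP+ and PBS samples did not overlap in either genotype, and Eno2 rose 4.38-fold (log2 2.13 ± 0.19, adjusted p = 2.61e-06) and 3.14-fold (log2 1.65 ± 0.19, adjusted p = 2.46e-05). Of 9 neuronal markers tested, none was higher and 5 were lower with MPP+ in each genotype, Tubb3 and Syt1 among them. The summed CPM of the neuronal list was 461 to 575 in wild-type PBS and 223 to 245 with MPP+. Which cells held the Eno2 RNA was not tested. Eno2 was 2.85 ± 0.417% of enolase FPKM in wild-type PBS and 27.7 ± 8.03% with MPP+, and 2.17 ± 0.231% and 16.1 ± 2.46% in the knockout. The enolase sum went from 144 ± 8.84 to 64.6 ± 3.82 scaled FPKM in wild type. A copy of Eno1 named Eno1b had 380 to 4242 counts and varied within knockout PBS, at 4001, 3985 and 380, so Eno1 reads may be divided between them.

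**Figure D2:**
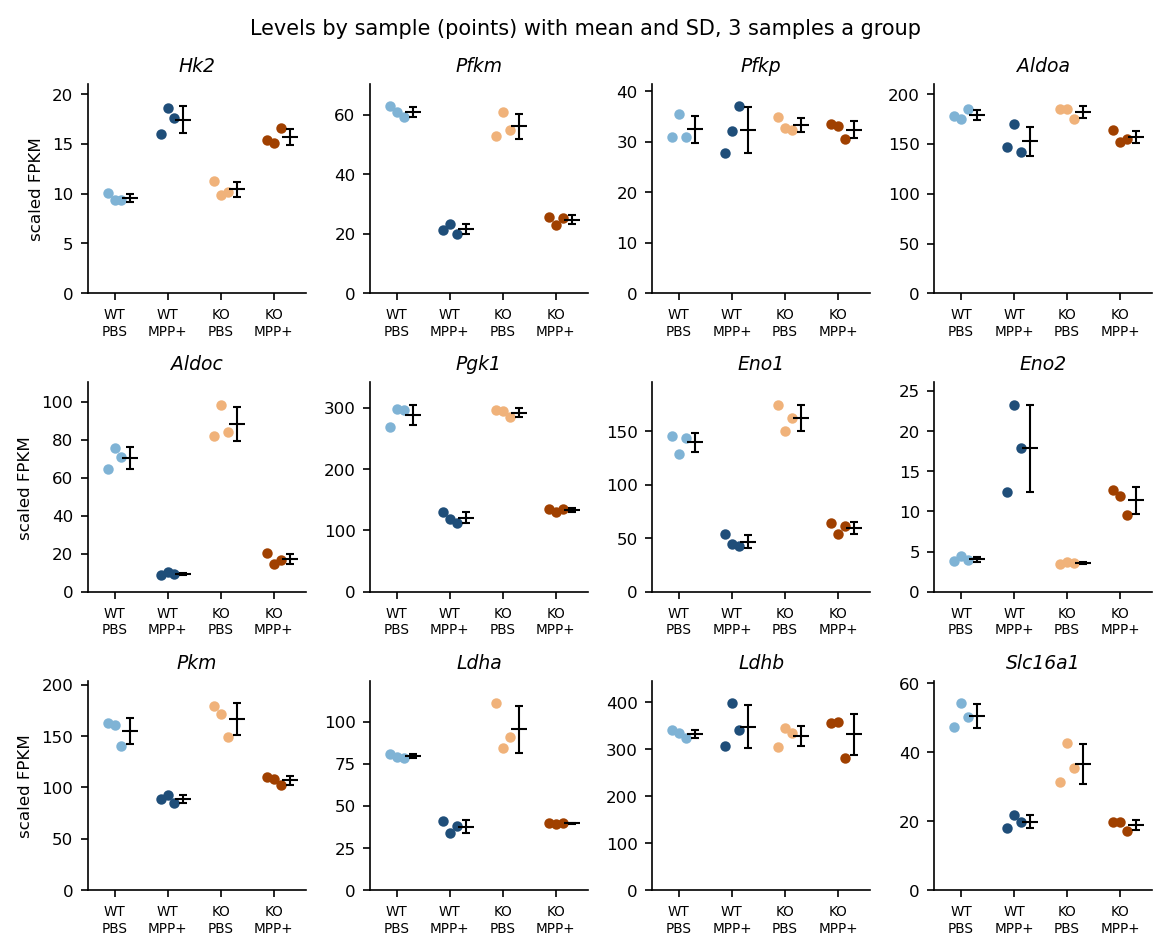
Scaled FPKM (y axis, from 0) of 12 genes in the 12 samples by group (x axis), with each sample as a point and the mean and SD of 3 samples beside it. Hk2 and Eno2 rise with MPP+, Pfkp and Ldhb overlap, and Pfkm, Aldoc, Pgk1, Eno1, Pkm, Ldha and Slc16a1 fall.

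**Figure D3:**
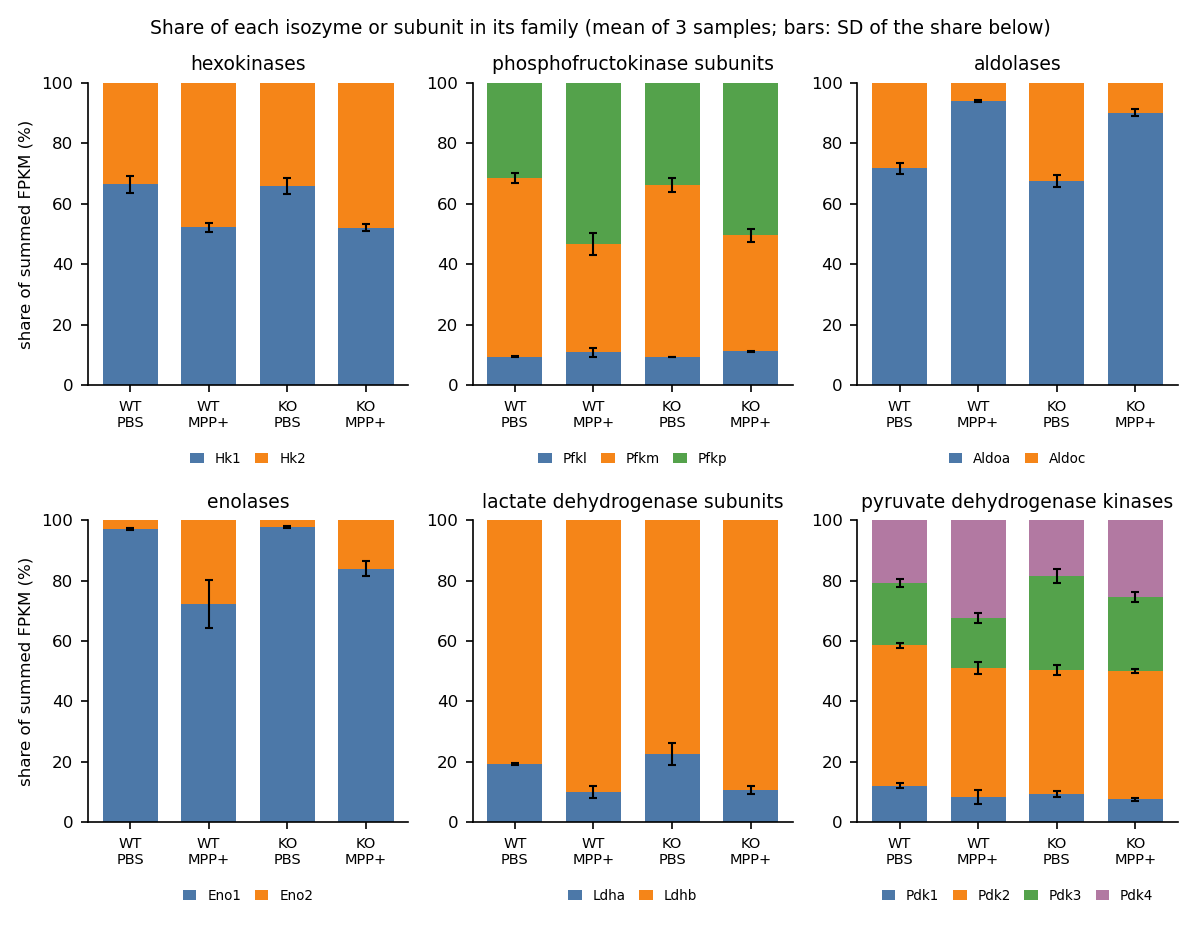
Share of each isozyme or subunit (y axis, % of the family's summed FPKM, mean of 3 samples) by group (x axis) in 6 families; black bars are the SD of the share of the segment below. With MPP+ the shares of Hk2, Pfkp, Aldoa, Eno2, Ldhb and Pdk4 are larger in both genotypes.

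Lactate dehydrogenase is a tetramer of A and B subunits, and the A subunit favours making lactate. Ldha was at 80.8, 78.9 and 78.7 scaled FPKM in wild-type PBS and 41.1, 33.8 and 38.1 with MPP+. In the knockout it was at 111, 84.4 and 90.8 and 39.9, 39.4 and 39.8. It was 2.11-fold lower in wild type (log2 -1.08 ± 0.09, adjusted p = 1.86e-06) and 2.41-fold lower in the knockout (log2 -1.27 ± 0.09, adjusted p = 7.77e-07). Ldhb, the most abundant gene of the set by scaled FPKM in wild-type PBS, was at 341, 334 and 325 there and 306, 397 and 341 with MPP+. The groups overlapped, and the log2 difference was 0.06 ± 0.11, adjusted p = 0.655 in wild type and 0.01 ± 0.11, adjusted p = 0.972 in the knockout. Ldha was 19.3 ± 0.207% of the summed FPKM of both subunits in wild-type PBS and 9.91 ± 2.01% with MPP+, and 22.5 ± 3.71% and 10.8 ± 1.37% in the knockout. Raw counts, which are not scaled to length, ran from 8238 to 27138 for Ldha and from 33081 to 45968 for Ldhb. Those of Pkm averaged 48378 over the 12 libraries.

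Of the lactate carriers, Slc16a1 fell in both genotypes and Slc16a3 in the knockout. Slc16a1 encodes MCT1, a bidirectional lactate and pyruvate carrier. It was at 47.2, 54.1 and 50.3 scaled FPKM in wild-type PBS and 17.98, 21.9 and 19.9 with MPP+. Knockout samples were at 31.5, 42.7 and 35.5 in PBS and 19.8, 19.7 and 17.2 with MPP+. No MPP+ sample reached a PBS sample of its genotype (-1.35 ± 0.12, adjusted p = 1.65e-06 and -0.96 ± 0.11, adjusted p = 3.15e-05). Slc16a3 encodes MCT4, the carrier tied to lactate release from glycolytic cells, and was the least abundant of the set in wild-type PBS. It was at 1.34, 1.78 and 1.10 in wild-type PBS and 1.14, 1.25 and 0.854 with MPP+, and at 0.888, 0.909 and 0.966 and 0.606, 0.537 and 0.346 in the knockout. It fell in the knockout (-0.89 ± 0.24, adjusted p = 0.00873), while in wild type the groups overlapped (-0.39 ± 0.23, adjusted p = 0.184), and the difference between these effects did not pass (-0.51 ± 0.33, adjusted p = 0.47).

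Promoters of genes that moved together are shown because several glycolytic genes are known targets of hypoxia-inducible factors, whose core sites read ACGTG or GCGTG. RefSeq promoters on GRCm38.p6, 250 bases before to 50 after a start, were found for 32 of the 33 genes, taking the start nearest to the gene's start in the table; Slc2a3 is named only. On either strand, ACGTG was in 15 of 32 promoters, beside 19.6% of all 32851 promoters and 23.5% of the 16860 promoters of tested genes. GCGTG was in 19 of 32, beside 32.4% and 46.2%. Of the 17 genes that fell in both genotypes 9 held ACGTG, and of the 3 that rose in both 1 did. Either of these 2 sites was in 25 of 32, beside 43.8% of all promoters and 57.4% of those of tested genes. CACGTG, which contains ACGTG on both strands and so counts as 2 matches, was in 5 of 32, beside 7.15% and 9.03%. TGATGCAA, a site of the amino acid response, was in 0 of 32, beside 0.895% of all promoters and 0.611% of those of tested genes. A match is a description of letters and not of binding. In the sequences, printed 5′ to 3′ on the gene's strand, capitals mark ACGTG and GCGTG on either strand. Ldha, Slc16a1, Pgk1 and Aldoc fell, and Hk2 and Eno2 rose. Each falling gene shown holds ACGTG, so the sequences do not stand for all genes that fell. Of the 17 that fell in both genotypes, 13 held ACGTG or GCGTG. Eno1, not shown, fell and had 0 matches of ACGTG and 2 of GCGTG. Gpi1, Aldoa, Tpi1 and Pkm, not shown, also fell and had 0 of either. The windows are chr7:46845554-46845853 (plus strand) for Ldha, chr3:104638414-104638713 (plus strand) for Slc16a1, chrX:106186850-106187149 (plus strand) for Pgk1, chr11:78322823-78323122 (plus strand) for Aldoc, chr6:82774405-82774704 (minus strand) for Hk2 and chr6:124769624-124769923 (minus strand) for Eno2.
Ldha: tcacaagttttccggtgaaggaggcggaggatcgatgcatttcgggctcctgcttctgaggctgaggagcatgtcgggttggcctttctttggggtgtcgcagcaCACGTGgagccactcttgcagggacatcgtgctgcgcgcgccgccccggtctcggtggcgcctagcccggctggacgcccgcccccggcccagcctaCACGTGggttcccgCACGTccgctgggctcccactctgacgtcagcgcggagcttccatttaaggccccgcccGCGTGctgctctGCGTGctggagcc
Slc16a1: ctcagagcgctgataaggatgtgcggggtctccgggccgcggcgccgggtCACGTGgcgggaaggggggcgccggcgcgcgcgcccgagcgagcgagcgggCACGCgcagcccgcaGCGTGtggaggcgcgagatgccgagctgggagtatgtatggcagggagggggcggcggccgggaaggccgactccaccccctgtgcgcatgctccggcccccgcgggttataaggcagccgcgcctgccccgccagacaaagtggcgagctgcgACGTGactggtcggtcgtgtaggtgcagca
Pgk1: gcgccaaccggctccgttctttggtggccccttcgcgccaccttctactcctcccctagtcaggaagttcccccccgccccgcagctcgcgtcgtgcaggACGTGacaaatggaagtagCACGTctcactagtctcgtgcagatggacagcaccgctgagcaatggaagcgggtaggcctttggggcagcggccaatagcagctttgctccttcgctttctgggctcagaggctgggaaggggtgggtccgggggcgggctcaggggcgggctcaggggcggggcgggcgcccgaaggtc
Aldoc: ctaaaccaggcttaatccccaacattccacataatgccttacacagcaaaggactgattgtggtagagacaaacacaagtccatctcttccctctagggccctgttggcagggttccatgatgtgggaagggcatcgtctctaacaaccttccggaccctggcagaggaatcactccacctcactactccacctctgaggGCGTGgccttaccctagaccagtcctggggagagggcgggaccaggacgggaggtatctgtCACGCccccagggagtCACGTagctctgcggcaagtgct
Hk2: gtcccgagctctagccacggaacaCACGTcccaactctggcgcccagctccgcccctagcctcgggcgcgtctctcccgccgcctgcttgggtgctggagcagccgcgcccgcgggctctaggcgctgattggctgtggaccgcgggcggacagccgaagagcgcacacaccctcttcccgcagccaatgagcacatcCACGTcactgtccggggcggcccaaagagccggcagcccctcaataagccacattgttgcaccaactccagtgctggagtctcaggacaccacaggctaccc
Eno2: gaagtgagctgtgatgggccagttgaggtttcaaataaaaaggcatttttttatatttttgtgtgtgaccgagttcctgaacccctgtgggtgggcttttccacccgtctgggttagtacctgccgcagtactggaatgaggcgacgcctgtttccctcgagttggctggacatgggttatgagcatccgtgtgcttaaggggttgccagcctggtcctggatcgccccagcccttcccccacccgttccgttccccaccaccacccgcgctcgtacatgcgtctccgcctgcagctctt
The Ldha start used lies 4329 bases from the start in the table, the largest such distance among the 32 genes. In that window Ldha had 5 matches of ACGTG and 2 of GCGTG, while Slc16a1 had 3 and 2 and Pgk1 had 2 and 0. Hk2, which rose, had 2 matches of ACGTG as well, and Eno2 had 0 of either.

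Pyruvate enters the mitochondrion through a carrier of Mpc1 and Mpc2. Mpc1 was at 7.12 to 8.88 scaled FPKM in wild-type PBS and 7.09 to 8.76 with MPP+ (-0.08 ± 0.12, adjusted p = 0.57), and in the knockout the log2 difference was -0.29 ± 0.12, adjusted p = 0.0632. Mpc2 was at 3.39, 3.36 and 3.47 in wild-type PBS and 3.55, 4.29 and 3.90 with MPP+. The knockout values were 4.34, 4.41 and 4.09 in PBS and 3.85, 4.02 and 3.97 with MPP+. Its wild-type call (0.20 ± 0.08, adjusted p = 0.0437) was lost when any of 11 of the 12 libraries was left out and with RLE scaling, no filter, a minimum count of 50 or only the groups compared, and the knockout value was -0.12 ± 0.08, adjusted p = 0.201. The sum of both carrier genes was 11.7 ± 1.02 in wild-type PBS and 11.7 ± 1.02 with MPP+.

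The subunits of the pyruvate dehydrogenase complex moved in different directions. Pdha1, the X-linked catalytic subunit on which the kinases act, was at 83.5, 82.1 and 82.98 scaled FPKM in wild-type PBS and 63.1, 63.7 and 64.3 with MPP+. In the knockout it was at 84.1, 84.1 and 83.9 and 62.6, 61.4 and 62.4. The samples within a group were close, and the fall was -0.38 ± 0.04, adjusted p = 5.40e-06 in wild type and -0.44 ± 0.04, adjusted p = 2.39e-06 in the knockout. Pdhb, its partner in the same enzyme, was at 18.7 to 19.8 and 18.7 to 20.04 in wild type (0.01 ± 0.06, adjusted p = 0.902), and the knockout value was 0.10 ± 0.06, adjusted p = 0.189. Dlat, the core acetyltransferase, was at 13.05, 10.998 and 11.7 in wild-type PBS and 16.1, 16.9 and 15.4 with MPP+, and at 14.2, 13.6 and 14.2 and 18.4, 17.9 and 18.7 in the knockout. It rose in both, without overlap (0.44 ± 0.07, adjusted p = 0.000157 and 0.38 ± 0.07, adjusted p = 0.000581). Pdhx, which anchors dihydrolipoamide dehydrogenase to the core, was 0.14 ± 0.06, adjusted p = 0.0748 in wild type and rose by 0.23 ± 0.06 in the knockout (adjusted p = 0.00862), and the difference between these effects was 0.09 ± 0.09, adjusted p = 0.643.

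Of the 4 kinases that inactivate the complex, 3 fell with MPP+ in both genotypes. Pdk2, the most abundant, was at 20.5, 21.6 and 21.8 scaled FPKM in wild-type PBS and 14.2, 16.8 and 15.1 with MPP+ (-0.48 ± 0.07, adjusted p = 8.65e-05), and the knockout value was -0.33 ± 0.07, adjusted p = 0.00142. Pdk1, a hypoxia-induced kinase, was at 5.68, 5.81 and 5.12 and 3.69, 2.41 and 2.80 in wild type (-0.90 ± 0.14, adjusted p = 0.00017), and the knockout value was -0.71 ± 0.14, adjusted p = 0.00122. Pdk3 was at 9.51, 9.002 and 9.85 and 6.16, 6.35 and 5.26 in wild type (-0.68 ± 0.09, adjusted p = 7.80e-05). For all 3 the MPP+ samples lay below the PBS samples. Pdk4, the kinase induced by fasting and fatty acids, was at 8.80, 10.5 and 9.17 and 10.3, 11.7 and 12.9 in wild type (0.29 ± 0.12, adjusted p = 0.0532) and 0.07 ± 0.12, adjusted p = 0.673 in the knockout. Pdk4 was 20.7 ± 1.42% of kinase FPKM in wild-type PBS and 32.4 ± 2.99% with MPP+, while the sum of the 4 kinases went from 45.8 ± 1.20 to 35.9 ± 1.51. Pdp1, a phosphatase that reactivates the complex, had a larger estimated fall than any of the kinases (-1.86 ± 0.07, adjusted p = 3.56e-09 and -1.48 ± 0.07, adjusted p = 1.91e-08).

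**Figure D4:**
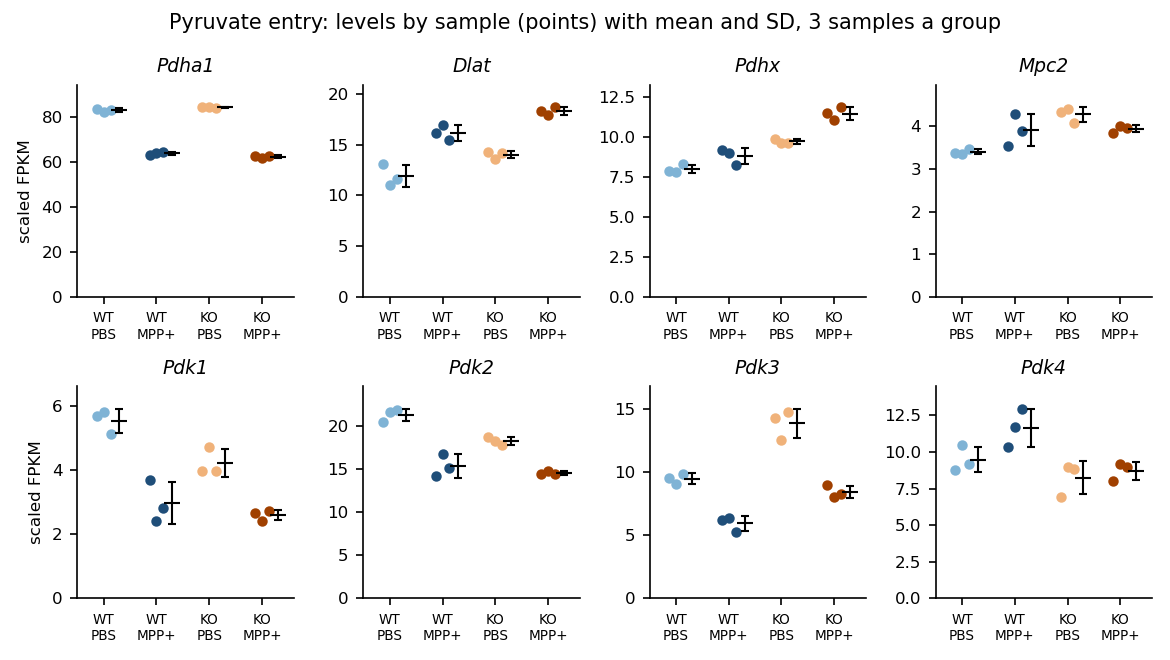
Scaled FPKM (y axis, from 0) of 8 genes of pyruvate entry in the 12 samples by group (x axis), with each sample as a point and the mean and SD of 3 samples beside it. Pdha1, Pdk1, Pdk2 and Pdk3 are lower and Dlat higher with MPP+, and Pdk3 and Pdhx are higher in the knockout than in wild type of the same treatment.

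Between genotypes in PBS, 15.2% of the 33 genes were called. There, 4 of the 33 genes were higher and 1 lower in the knockout, where 11% of all genes were called, 5.34% higher and 5.66% lower. The median log2 difference was 0.02, beside 0.00 over all genes. The genotypes did not overlap for 9 genes higher and 7 lower, which held for 16.9% of all genes in each direction. None of the 15 glycolytic enzymes was called. Pdk3, an X-linked gene, was at 9.51, 9.002 and 9.85 scaled FPKM in wild-type PBS and 14.3, 12.6 and 14.7 in knockout PBS, without overlap (0.55 ± 0.09, adjusted p = 0.00417). Pdhx was at 7.88, 7.79 and 8.28 in wild type and 9.89, 9.64 and 9.62 in the knockout (0.28 ± 0.06, adjusted p = 0.0139). Mpc2 (0.33 ± 0.08, adjusted p = 0.018) and Dlat (0.23 ± 0.07, adjusted p = 0.0441) were also higher, and Slc16a1 was lower (-0.47 ± 0.11, adjusted p = 0.0224). Leaving out single libraries ended the call of Dlat in 9 of 12 cases, of Pdhx and Slc16a1 in 4, of Mpc2 in 3 and of Pdk3 in 0. That of Dlat also ended with library totals, no filter, the limma fits, only the groups compared and the replicate block.

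With MPP+, 5 genes were higher and 3 lower in the knockout, where 16.9% of all genes were called, 7.87% higher and 9% lower, and the median was 0.00, beside -0.02 over all genes. The genotypes did not overlap for 5 genes higher and 5 lower, beside 15.6% and 18.3% of all genes. Aldoc was at 9.05, 10.2 and 9.42 scaled FPKM in wild type and 20.2, 14.6 and 16.9 in the knockout with MPP+, 1.79-fold higher without overlap (log2 0.84 ± 0.12, adjusted p = 0.000984). Pdk3 was higher again, at 6.16, 6.35 and 5.26 against 8.96, 8.04 and 8.26 (0.50 ± 0.09, adjusted p = 0.00518), and so was Pdhx, at 9.18, 9.001 and 8.25 against 11.5, 11.1 and 11.8 (0.37 ± 0.06, adjusted p = 0.00273). Slc16a3 was lower, at 1.14, 1.25 and 0.854 against 0.606, 0.537 and 0.346 (-1.12 ± 0.24, adjusted p = 0.00949). These 4 calls held when any single library was left out. Eno1 (0.34 ± 0.10, adjusted p = 0.0377) and Pkm (0.26 ± 0.08, adjusted p = 0.0452) were higher and Eno2 (-0.66 ± 0.18, adjusted p = 0.0333) and Pdk4 (-0.43 ± 0.12, adjusted p = 0.0306) lower, and these calls were lost in 4, 6, 7 and 6 of 12 cases. Library totals and the limma fits ended those of Eno1 and Pkm, and no filter or only the groups compared ended those of Eno1, Eno2 and Pdk4. In the knockout, the summed CPM of fibroblast and meningeal markers was 1400 to 1756 in PBS and 1226 to 1792 with MPP+, against 389 to 1146 and 213 to 573 in wild type, and that of microglial markers was 258 to 332 and 161 to 247 against 473 to 711 and 287 to 384. Their part in the genotype differences was not tested.

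The test of whether the MPP+ effect differed between genotypes called none of the 33 genes in edgeR, where 1.35% of all genes were called, 0.601% as higher and 0.748% as lower. At an unadjusted p under 0.05 there were 6, Hk2, Pfkl, Pfkm, Aldoc, Slc16a1 and Mpc2, which is 18.2% of the 33 beside 17.5% of all genes. The largest positive difference was in Aldoc (0.52 ± 0.16, adjusted p = 0.131), and DESeq2, which called 6.66% of all genes, called it alone of the 33 (0.53, adjusted p = 0.0303), with adjusted p-values of 0.0303 to 0.243 over all alternatives. Without wild-type MPP+ replicate 1, Mpc2 was called (-0.39, adjusted p = 0.0353), where 7.09% of all genes were, and without knockout PBS replicate 2 the share was 1.8%. Leaving out any of the other 10 libraries gave 0.289 to 0.841% of all genes. The count of calls in this test thus changed when single libraries were left out, and why was not tested. Missing the threshold does not show that the genotypes responded alike.

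Further genes of the pathway were called in both directions, and their counts are to be read beside the 26.8% of all genes higher and 28.4% lower with MPP+ in wild type and the 23.1% and 24.7% in the knockout. Among 13 tested further isozymes and related enzymes, 4 rose and 5 fell with MPP+ in wild type and 2 rose and 5 fell in the knockout (median log2 fold changes -0.47 and -0.48, beside -0.04 over all genes in each). Tigar, whose enzyme lowers fructose 2,6-bisphosphate, rose in both (1.10 ± 0.09, adjusted p = 1.44e-06 in wild type and 0.82 ± 0.09 in the knockout). Eno4 (-1.55 ± 0.19 in wild type and -1.14 ± 0.19 in the knockout) and Hk3 (-1.44 ± 0.33 and -1.70 ± 0.33) fell in both. Of 14 further sugar and lactate transport genes, 2 rose and 7 fell in wild type and 3 rose and 6 fell in the knockout (medians -0.63 and -0.37). Arrdc4 and Txnip encode related alpha-arrestins that remove GLUT1 from the membrane, and they moved in opposite directions in both genotypes. Arrdc4 was at 1.61 ± 0.10 in wild type and 0.999 ± 0.10 in the knockout, and Txnip at -2.01 ± 0.15 and -1.81 ± 0.15. Slc5a1 rose in the knockout (2.59 ± 0.67) from a level near 0. Of 7 accessory genes of pyruvate dehydrogenase 2 rose and 2 fell in each genotype (medians -0.10 and -0.07), close to the share over all genes. Lipt2, a gene of lipoic acid synthesis, was highest at 0.70 ± 0.20 in wild type, a call lost without PBS replicate 2 (adjusted p = 0.0513), and Pdp1 lowest.

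Genes that use pyruvate otherwise were mixed. Of 9 genes of pyruvate carboxylation, transamination and gluconeogenesis 3 rose and 4 fell in each genotype (median log2 fold changes -0.06 and 0.17), beside the 26.8% higher and 28.4% lower over all genes in wild type and 23.1% and 24.7% in the knockout. Pck2, the mitochondrial phosphoenolpyruvate carboxykinase, rose (2.07 ± 0.12, adjusted p = 7.35e-08 in wild type and 2.36 ± 0.12, adjusted p = 4.25e-08 in the knockout). The malic enzymes Me2 (-1.32 ± 0.10 in wild type and -0.87 in the knockout) and Me3 (-1.18 and -1.18 ± 0.12) fell in both genotypes. Of 9 genes of the shuttles that carry NADH into mitochondria, 2 rose and 5 fell in wild type and 2 rose and 6 fell in the knockout (medians -0.64 and -0.45). Got1 of the malate-aspartate shuttle rose (1.04 ± 0.08 and 1.11 ± 0.08). The glycerol phosphate dehydrogenases Gpd1 (-1.32 ± 0.10 in wild type and -0.76 in the knockout) and Gpd2 (-1.07 and -1.35 ± 0.08) fell in both genotypes. Of 17 glycogen genes 4 rose and 9 fell in each genotype (medians -0.33 and -0.19). Lysosomal Gaa (0.79 ± 0.08 in wild type and 0.62 in the knockout) and Stbd1 (0.73 and 1.45 ± 0.14) rose in both genotypes. Phkg1 (-2.18 ± 0.22 in wild type and -1.45 in the knockout) and Ppp1r3c (-2.14 and -1.73 ± 0.11) fell in both.

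Of 16 upstream regulators 9 rose and 4 fell in wild type, and 7 rose and 4 fell in the knockout (median log2 fold changes 0.77 and 0.40). The 4 that fell are close to the 28.4% and 24.7% of all genes called lower, while 26.8% and 23.1% of all genes were higher. Prkaa2, a catalytic subunit of AMP-activated kinase, rose most (2.31 ± 0.13, adjusted p = 7.15e-08 in wild type and 1.37 ± 0.13, adjusted p = 4.28e-06 in the knockout). Epas1, which encodes hypoxia-inducible factor 2 alpha, fell most (-2.49 ± 0.10, adjusted p = 5.61e-09 and -2.04 ± 0.10, adjusted p = 2.60e-08). Hif1a and Myc, named after their values were seen, rose by 0.95 ± 0.06 and 1.11 ± 0.13 in wild type and by 0.84 ± 0.06 and 1.06 ± 0.13 in the knockout.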

How the data were processed

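The authors deposited a table of 32742 Ensembl genes with raw counts and FPKM for 12 samples, per the file headers. Genome builds GRCm38 and mm10 are named in the submitters' processing notes; the aligner, counting tool and use of strand were not stated in any source read (not given in the sources used here). Libraries came from a SMARTER mRNA kit, per the labels' protocols. Counts were whole numbers. For the 11408 genes above 200 counts throughout, count divided by FPKM, relative to the median ratio of its library, had a 0.1 percentile of 0.996 and a 99.9 percentile of 1.01.

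The count model was edgeR 4.0.16, run under R 4.3.3 (filterByExpr, minimum count 10 and minimum total 15, leaving 21129 genes; TMM scaling; quasi-likelihood F test, means of 4 groups, 8 residual degrees of freedom). A two-sided test was called at an adjusted p under 0.05 (Benjamini-Hochberg, all 21129 genes). Standard errors follow from the F statistic. Levels are deposited FPKM divided by the TMM factor. The pipeline was tested on simulated data. The members and lists were chosen with earlier results of these data known. Genes of the further lists were named where they had the largest called rise or fall at 2 CPM or more; others are marked in the text. Alternatives used DESeq2 1.42.0, limma 3.58.1 on log2(FPKM + 1) and log2(FPKM + 0.1), other scalings and filters, and single libraries left out. Figures used matplotlib.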

Additional observations from a re-analysis of the deposited data

Results flagged for a closer look

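Of the further genes of the pathway, 3 had an MPP+ effect that differed between genotypes by the interaction test in edgeR. They were 1 of 17 tested glycogen genes and 2 of 16 upstream regulators, with none in the other pathway lists. Over all genes 1.35% were called in that test, and 6.66% with DESeq2. Prkaa2 rose less in the knockout, by -0.94 ± 0.18, adjusted p = 0.0311, with mean scaled FPKM going from 2.20 to 10.9 in wild type and from 3.11 to 8.11 in the knockout. Pygb, the brain glycogen phosphorylase, fell less in the knockout, by 0.37 ± 0.07, adjusted p = 0.0388, with means going from 102 to 30.02 in wild type and from 90.3 to 34.3 in the knockout. Trp53, which encodes p53, rose less in the knockout, by -0.43 ± 0.07, adjusted p = 0.0163, with means going from 13.4 to 23.4 in wild type and from 15.7 to 20.4 in the knockout. Leaving out single libraries ended the call of Prkaa2 and Pygb in 10 of 12 cases each and that of Trp53 in 5, with highest adjusted p-values of 0.0939, 0.0994 and 0.0718. The direction held in every case. With the replicate block the calls of Prkaa2 and Pygb also ended, and with no filter that of Prkaa2. Pygb and Trp53 were named after their values were seen.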

How the results depend on the processing

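None of the called log2 fold changes of the 33 genes reversed under any alternative run. Members higher with MPP+ in wild type numbered 7 in place of 4 with library totals and with each of the 3 limma fits, the additions being Slc2a1, Pdhx and Pdk4. For knockout against wild type in PBS, 1 gene was higher and 0 lower at an adjusted p under 0.01. Genes lower there numbered 2 with RLE, library totals, no filter, a minimum count of 50 and the limma fits, 3 with only the groups compared, and 4 with DESeq2, Pdk2 being added in each of these. For knockout against wild type with MPP+, 3 were higher with library totals, the limma fits and an adjusted p under 0.01. Genes lower there numbered 5 with library totals and the limma fits on all tested genes, and 1 with no filter, only the groups compared, and an adjusted p under 0.01. DESeq2 called 1 higher interaction. Leaving out single libraries gave 3 to 6 higher and 15 to 17 lower for MPP+ in wild type, 4 to 5 and 16 to 19 in the knockout, 1 to 5 and 0 to 3 for genotype in PBS, 3 to 6 and 1 to 6 for genotype with MPP+, and 0 to 0 and 0 to 1 for the interaction. The causes of these changes were not tested.

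Whether replicate numbers pair the samples is not settled. After group means were removed, same-numbered samples correlated at -0.02 to 0.06 and differently numbered ones at -0.06 to 0.06. With 3 samples a group, these correlations do not decide the question. In the knockout the summed CPM of Y-linked genes went with the replicate number. It was 39.4, 127 and 129 in PBS replicates 1, 2 and 3, and 43.1, 131 and 129 with MPP+. With the replicate block the members higher and lower numbered 5 and 17 for MPP+ in wild type, 5 and 19 in the knockout, 3 and 1 for genotype in PBS, 5 and 4 for genotype with MPP+, and 0 and 0 for the interaction. Scaling moved the split for genotype in PBS: 48.6% of called genes were higher with TMM and 35.5% with library totals. With limma on genes of mean FPKM of at least 1 the median of all genes was 0.09 in wild type and 0.10 in the knockout, against -0.04 with TMM, and 59.5% of called genes were higher in the knockout, against 48.3%. Depth limits Slc16a3 most by its level, since it was the least abundant of the 33 genes in wild-type PBS.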

Other observations

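Slc2a4, which encodes the insulin-sensitive transporter GLUT4 and is outside the 33, was much lower in the knockout and was named after its values were seen. Its mean scaled FPKM was 3.13 in wild-type PBS and 0.286 in knockout PBS (-3.44 ± 0.39, adjusted p = 0.000409), and 1.58 and 0.104 with MPP+ (-3.89 ± 0.41, adjusted p = 0.000228). It lies on chromosome 11 at chr11:69942539-69948175, 0.484 Mb from Arrb2. Other pathway genes of the lists near Arrb2 gave smaller or no calls. The cell type markers Cd68 and Atp1b2, at 0.766 and 0.827 Mb, are not described here. Eno3, the muscle enolase, lies 0.216 Mb away and was -0.15 ± 0.20, adjusted p = 0.747 in PBS and -0.68 ± 0.20, adjusted p = 0.0417 with MPP+, a call lost in 8 of 12 cases of a single library left out (highest adjusted p 0.146), with no filter, with only the groups compared and with the replicate block. Slc25a11, a mitochondrial carrier 0.203 Mb away, was 0.06 ± 0.09, adjusted p = 0.726 in PBS and 0.26 ± 0.09, adjusted p = 0.0598 with MPP+. Trp53 lies 0.841 Mb away and was 0.22, adjusted p = 0.0122 in PBS and -0.21, adjusted p = 0.0128 with MPP+. Each of these calls was lost in 2 of 12 cases of a single library left out. The call with MPP+ was also lost with only the groups compared. Of the 33 genes, Aldoc lies closest to Arrb2, at 7.88 Mb. What distance to the targeted gene has to do with these values was not tested.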
